A study of Mus musculus with 13 samples.

Results

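The IL-1 and IL-18 receptor family was followed through regulatory T cell (Treg) development in mice with and without the NF-kB transcription factor c-Rel, the product of the Rel gene. Its 8 members were taken by gene symbol (Il1r1, Il1r2, Il1rl1, Il1rl2, Il1rap, Il18r1, Il18rap and Sigirr), and all 8 were found among the 22048 genes that the 3 count tables share. The family was chosen by its members' expression values with results of these libraries known, the low Il1r2 of c-Rel-deficient de novo Tregs among them. Member values in every comparison that involves de novo libraries are therefore given as descriptions, with no p-value. Whether pre-Treg and splenic values also entered the choice is not known. Member p-values at those stages, and counts of members called, may therefore not be independent of the choice.

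The RNA sequencing data comprise 13 libraries of CD4 T cells that were enriched magnetically and sorted, all from C57BL6/J mice carrying the Foxp3rfp reporter, an allele that marks cells expressing the Treg transcription factor Foxp3. Knockout (KO) mice were cRel-/-Foxp3rfp and wild-type (WT) mice were cRel+/+Foxp3rfp. Thymic pre-Tregs were represented by 3 KO and 2 WT libraries, thymic de novo Tregs by 2 KO and 2 WT libraries, and splenic Tregs by 2 KO and 2 WT libraries. The labels name no Cre driver, age, sex or number of animals, so p-values here reflect differences among libraries, whose sources may not be separate animals.

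Library totals lay between 13656304 and 35114430 counts. Levels are given in CPM, counts scaled to the library size with TMM factors. Without the TMM factors, 3 counts correspond to between 0.0854 and 0.228 CPM. Foxp3 lay between 682 and 921 CPM in the de novo and splenic libraries and between 19.8 and 101 CPM in pre-Tregs. Cd4 lay between 654 and 991 CPM in all 13 libraries. Rel was read in every library, and at each stage its KO values lay below its WT values. Pre-Tregs had 52.2 to 66 CPM in KO and 99.7 to 104 CPM in WT, and de novo Tregs 92 to 101 CPM in KO and 102 to 104 CPM in WT. In splenic Tregs Rel lay at 43.3 to 46 CPM in KO and 47.1 to 56.5 CPM in WT. Gene-level counts do not say which of its exons were read, so they do not check the genotype labels.

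The family shares a cytoplasmic TIR domain, with one exception, and works in pairs of a ligand-binding and an accessory chain that recruit MyD88 and IRAK kinases and end in NF-kB and MAP kinase activation. Il1r1 encodes the signalling receptor for IL-1, and Il1r2 encodes the exception, a decoy that binds IL-1 but lacks a signalling domain. Il1rl1 encodes ST2, the receptor for IL-33, which is known from Tregs of non-lymphoid tissues. Il1rl2 encodes the receptor for IL-36, and Il1rap the accessory chain that the IL-1, IL-33 and IL-36 receptors share. Il18r1 and Il18rap encode the binding and accessory chains of the IL-18 receptor, and Sigirr encodes a single-immunoglobulin member described as an inhibitor of IL-1 receptor and Toll-like receptor signalling.

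Of the 8 genes, 6 lie side by side on the forward strand of mouse chromosome 1 (GRCm38), between positions 40074079 and 40551705, a span of 478 kb. Their order is Il1r2 (ENSMUSG00000026073, 40074079 to 40125231), Il1r1 (40225080 to 40317257), Il1rl2 (40324610 to 40367562), Il1rl1 (40429570 to 40465415), Il18r1 (40465552 to 40500854) and Il18rap (40515362 to 40551705). Il1rap lies on the forward strand of chromosome 16, at 26581704 to 26730117, where 552 of its exonic bases overlap the opposite-strand gene Gm20319. The strandedness of the deposited counts is not given in the sources used here, so reads from those bases cannot be assigned to one of the genes. Sigirr lies on the reverse strand of chromosome 7, at 141091175 to 141100546. The other 7 members share no exonic bases with another gene of the annotation.

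NF-kB dimers such as c-Rel bind kB sites, so the RefSeq promoter windows of the members (GRCm38.p6, from 250 bases before to 50 bases after an annotated start) were searched for 3 letter patterns on both strands. RefSeq windows were matched for 7 members, 11 windows in all. The symmetric kB-like pattern GGAANTTCC, chosen after the sequences and the expression values had been seen, was found in 4 of these 11 windows, which belong to Il1r2, Il1rl1, Il1rl2 and Il18rap. It is present in 0.928% of all 32851 promoter windows and in 1.07% of the 27025 genes that have one. These shares are a description, and the pattern supports nothing about the expression values, which were known when it was picked. The 4 windows are shown because they place this pattern relative to the start, with the matched bases in capitals. All are on the forward strand of chromosome 1, written 5′ to 3′.
Il1r2 (chr1:40085843-40086142): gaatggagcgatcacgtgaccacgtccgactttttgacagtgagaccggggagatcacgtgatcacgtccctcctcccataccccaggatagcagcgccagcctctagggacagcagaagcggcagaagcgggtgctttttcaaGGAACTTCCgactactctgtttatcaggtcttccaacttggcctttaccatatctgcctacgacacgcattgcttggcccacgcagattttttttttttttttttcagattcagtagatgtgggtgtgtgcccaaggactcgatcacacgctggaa
Il1rl1 (chr1:40439379-40439678): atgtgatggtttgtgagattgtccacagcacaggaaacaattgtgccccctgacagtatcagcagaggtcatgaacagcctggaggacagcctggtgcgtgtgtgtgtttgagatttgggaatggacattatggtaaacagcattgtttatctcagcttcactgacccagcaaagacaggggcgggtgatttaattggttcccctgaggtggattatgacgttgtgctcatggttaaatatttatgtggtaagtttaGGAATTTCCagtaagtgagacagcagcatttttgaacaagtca
Il1rl2 (chr1:40324339-40324638): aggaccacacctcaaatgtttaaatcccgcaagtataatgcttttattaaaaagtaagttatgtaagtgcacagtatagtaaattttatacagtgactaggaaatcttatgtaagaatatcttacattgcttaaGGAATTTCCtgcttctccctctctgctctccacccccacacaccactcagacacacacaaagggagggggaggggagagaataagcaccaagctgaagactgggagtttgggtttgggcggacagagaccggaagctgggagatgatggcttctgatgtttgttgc
Il18rap (chr1:40515112-40515411): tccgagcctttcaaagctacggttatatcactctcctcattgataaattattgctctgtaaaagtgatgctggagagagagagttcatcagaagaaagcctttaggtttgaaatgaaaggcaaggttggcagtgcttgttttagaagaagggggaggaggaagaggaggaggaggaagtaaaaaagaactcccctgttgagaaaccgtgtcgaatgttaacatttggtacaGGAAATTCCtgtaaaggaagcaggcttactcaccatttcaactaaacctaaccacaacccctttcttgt
Counted from the start annotated in RefSeq, the match begins 106 bases upstream in Il1r2, 116 bases upstream in Il1rl2 and 19 bases upstream in Il18rap. For Il1r2 this RefSeq start lies inside the gene span given above, downstream of its first position, 40074079. In Il1rl1 it begins at base 8 of the transcript, in the second of this gene's windows. The window of Il1r2 also holds TTCNNNGAA, a STAT5-type pattern, which overlaps the kB-like match and occurs in 8.30% of all windows, and so does a window of Il18r1. A looser kB pattern, GGG and CC with 5 letters of any kind between them, was found for Il1r1, Il1rap and Il18r1 and occurs in 50.8% of all windows. A match is a run of letters, and no binding was measured here.

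Per length of transcript, in CPM per kilobase of exon (kb), Sigirr was the most abundant member in all 6 groups and Il1r2 the next. Sigirr averaged 176 (SD 19.5) in KO and 163 (SD 2.22) CPM per kb in WT de novo Tregs, and 162 (SD 19.4) and 152 (SD 10.4) in KO and WT splenic Tregs (n = 2 each). This placed it above 97.1 to 97.7% of the 11825 expressed genes at those stages. In pre-Tregs it stood at 72.9 (SD 28.2, n = 3) in KO and 63.1 (SD 0.0641, n = 2) CPM per kb in WT. Il1r2 averaged 4.71 (SD 0.157) in KO and 40.7 (SD 4.64) CPM per kb in WT de novo Tregs, above 38.3% and 84.5% of expressed genes. In splenic Tregs it averaged 10.9 (SD 0.994) in KO and 29.9 (SD 0.568) CPM per kb in WT, above 56.1% and 79.2%.

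**Figure D1:**
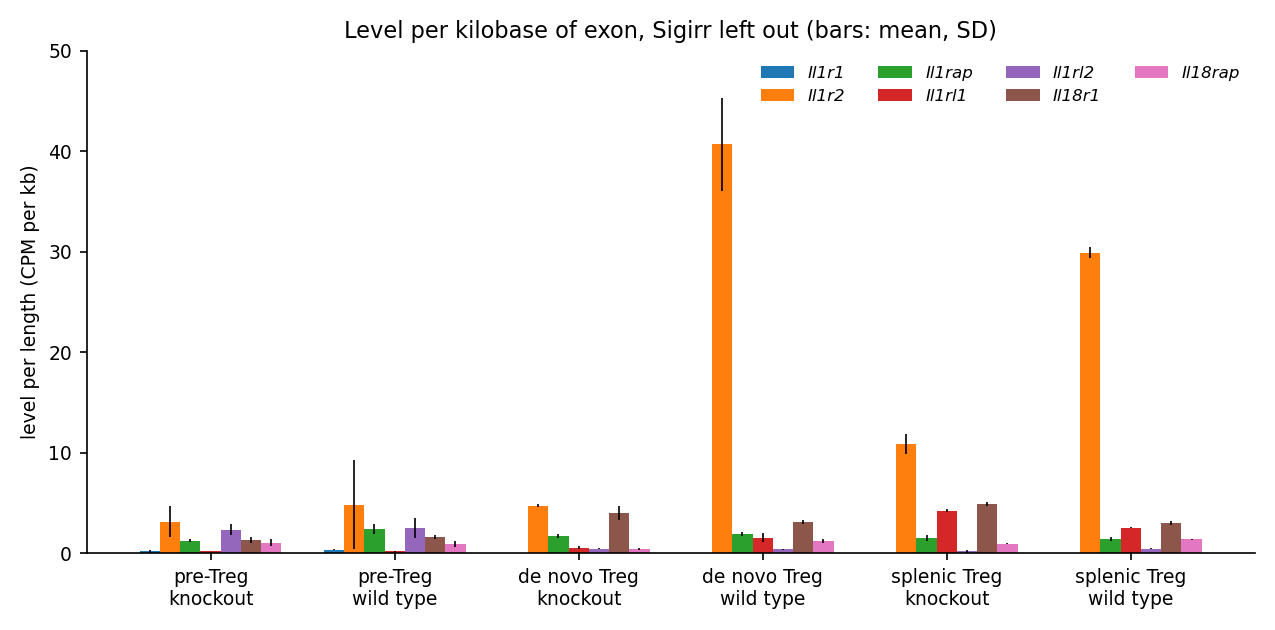
Mean level per length (y axis, CPM per kilobase of exon) of the members other than Sigirr in each group (x axis), the KO group left of the WT group of each stage; bars start at 0 and lines show the SD over 2 libraries (3 in KO pre-Tregs). Il1r2 has the tallest bar in every group, at 4.71 in KO and 40.7 in WT de novo Tregs and 10.9 in KO and 29.9 in WT splenic Tregs.

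Il1r2 supplied 2.40% and 2.63% of the summed per-length level of the family in KO de novo Tregs, against 20.6% and 17.8% in WT. In splenic Tregs the shares were 6.77% and 5.17% in KO and 15% and 16.5% in WT. Il18r1 held the third place in all 4 de novo and splenic groups, at 3.02 to 4.9 CPM per kb. Il1r1 was last in 5 of the 6 groups, while Il1rl1 was last in WT pre-Tregs. Between neighbours in this order the libraries overlapped for Il1r2 and Il1rl2 in pre-Tregs of both genotypes. They also overlapped for Il18r1 and Il1rap, Il1rap and Il18rap, and Il1rl1 and Il1r1 in KO pre-Tregs, and for Il1rl2 and Il1rap in WT pre-Tregs. In KO de novo Tregs they overlapped for Il1rl1 and Il1rl2 and for Il1rl2 and Il18rap, and in WT de novo Tregs for Il1rap and Il1rl1 and for Il1rl1 and Il18rap. In splenic Tregs they overlapped only in WT, for Il1rap and Il18rap.

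**Figure D2:**
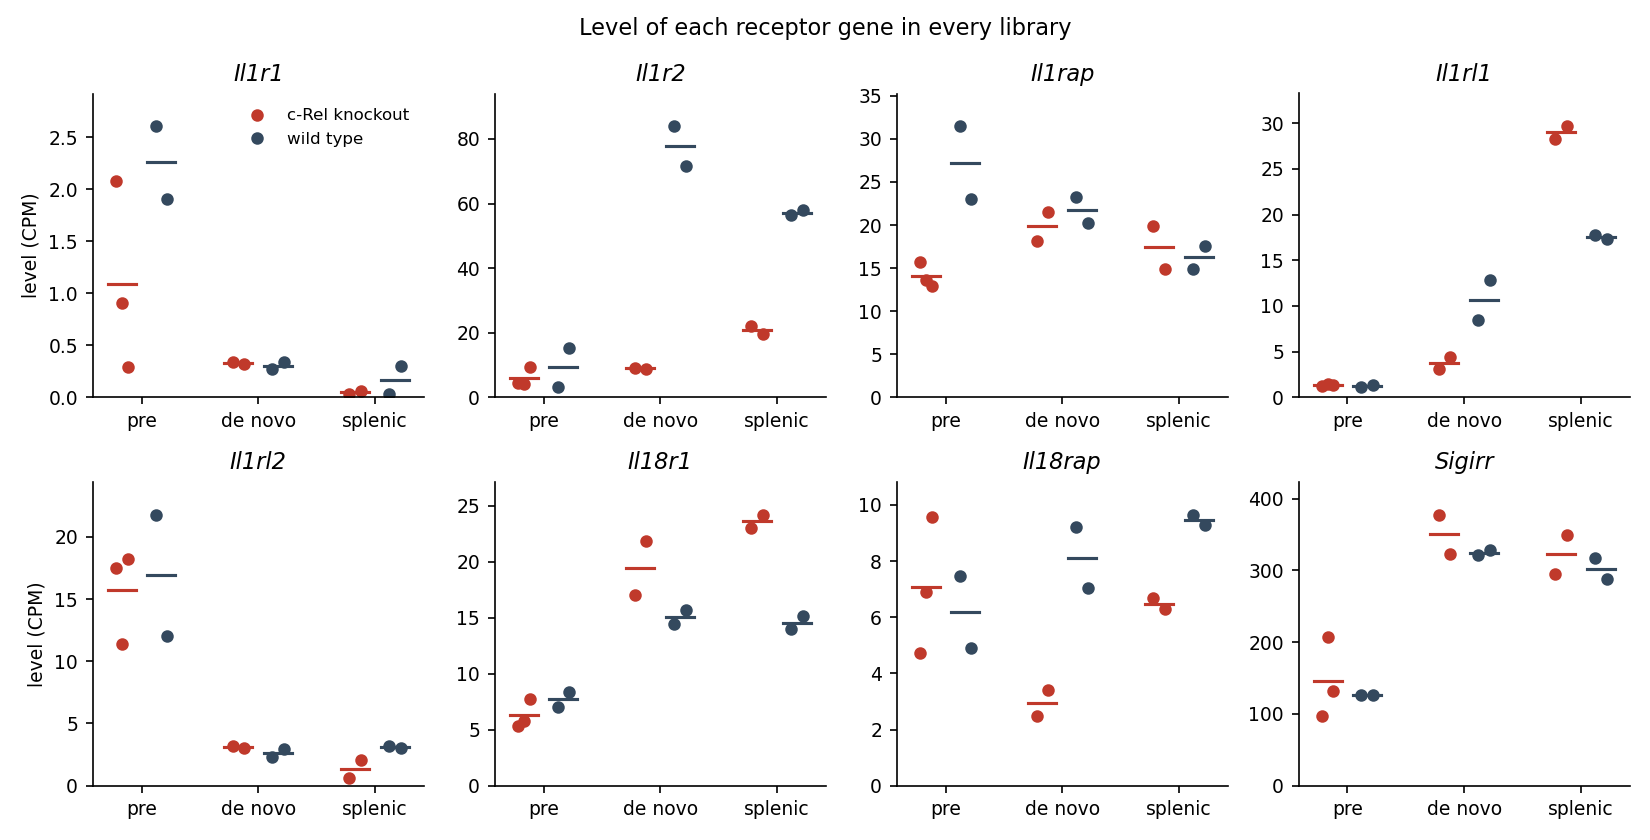
Level of each of the 8 members (y axis, TMM-scaled CPM, one panel per gene with its own axis) by stage (x axis), KO left of WT, with a point per library and a bar at the group mean. KO and WT libraries of Il1r2 separate in de novo Tregs (about 9 against 71.5 and 84) and in splenic Tregs, and Il1rl1 lies lower in KO than WT de novo Tregs but higher in KO than WT splenic Tregs.

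Il1r2, the decoy receptor, had 9.19 and 8.77 CPM in KO de novo Tregs, against 84 and 71.5 CPM in WT de novo Tregs. No library of one genotype came near the other. The log2 fold change of KO over WT was −3.11 (SE 0.13), and it lay between −3.22 and −2.99 under all 10 alternative settings of that comparison. In splenic Tregs Il1r2 had 22.2 and 19.5 CPM in KO and 56.4 and 57.9 CPM in WT libraries. It fell there by 1.45 on the log2 scale (SE 0.13, edgeR adjusted p = 0.00424). The call was lost when the spread was shared over the 6 groups (adjusted p = 0.293) and held in the other 10 alternatives.

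Pre-Tregs had 4.5, 4.14 and 9.34 CPM of Il1r2 in KO and 3.19 and 15.2 CPM in WT libraries, so that the KO values lay within the WT range. The log2 fold change was −0.61 (SE 0.63, adjusted p = 0.78), and 0.91 when WT replicate 2 was left out. Foxp3 in the same libraries was 19.8, 49.1 and 45.6 CPM in KO and 32.5 and 101 CPM in WT. Neutrophil markers, listed further below, summed to 6.8 to 9.34 CPM in KO and 2.76 to 18.9 CPM in WT pre-Tregs. Their part in the Il1r2 values was not tested. De novo Tregs over pre-Tregs gave a log2 fold change of 0.60 (SE 0.45) in KO and 3.08 (SE 0.51) in WT. Their difference was −2.48 (SE 0.68), with a range of −4.00 to −1.76 over the fits that left out 1 library, and was not called. Splenic over de novo Tregs gave 1.21 (SE 0.48) in KO and −0.44 (SE 0.46) in WT. The KO over WT difference was thus 1.66 log2 units (SE 0.66) closer to 0 in splenic than in de novo Tregs, which was not called either. In bulk libraries, fewer cells that express a gene and less RNA per cell cannot be told apart.

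Il1r1, the signalling IL-1 receptor, was close to the limit of detection outside pre-Tregs. It had 36, 27 and 5 counts in KO pre-Tregs and 36 and 27 counts in WT pre-Tregs. De novo Tregs held 8 and 8 counts in KO and 7 and 9 counts in WT, and splenic Tregs 1 and 2 counts in KO and 1 and 10 counts in WT. Il1r1 did not pass the count filter in the de novo and splenic comparisons, and a genotype difference was not detectable at this depth. In pre-Tregs it averaged 1.09 CPM (SD 0.908, n = 3) in KO and 2.26 CPM (SD 0.493, n = 2) in WT, and KO over WT was −1.03 in log2 units (SE 0.73, adjusted p = 0.728). The decoy therefore outnumbered the signalling receptor per length in every group.

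Il1rap, the shared accessory chain, had 15.7, 13.6 and 12.9 CPM in KO pre-Tregs, against 31.5 and 23 CPM in WT pre-Tregs. It was the only member whose KO and WT libraries did not overlap at that stage. The log2 fold change was −0.94 (SE 0.24), with an unadjusted p of 0.00485 and an edgeR adjusted p of 0.668. De novo values were 18.2 and 21.5 CPM in KO and 23.3 and 20.2 CPM in WT, and splenic values 19.9 and 14.9 CPM in KO and 14.9 and 17.6 CPM in WT. These overlap, with log2 fold changes of −0.13 (SE 0.14) in de novo and 0.10 (SE 0.18, adjusted p = 0.863) in splenic Tregs.

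Il1rl1, the IL-33 receptor, lay on opposite sides of WT at the Foxp3-positive stages. De novo Tregs had 3.06 and 4.4 CPM in KO and 8.47 and 12.8 CPM in WT, a log2 fold change of −1.51 (SE 0.27). Splenic Tregs had 28.3 and 29.7 CPM in KO and 17.8 and 17.3 CPM in WT. There Il1rl1 rose by 0.73 on the log2 scale (SE 0.13, adjusted p = 0.0465). That call was lost without WT replicate 1 (adjusted p = 0.149), without WT replicate 2 (0.181) and with the shared spread (0.294), and held in the other 8 alternatives. The KO over WT values at the 2 stages differed by 2.24 log2 units (SE 0.34), with a range of 1.91 to 2.52 over 18 alternatives. This difference was not called. In pre-Tregs all 5 libraries lay between 1.09 and 1.41 CPM. Il1rl1 makes a membrane-bound and a soluble form of ST2 from different transcripts, and the gene-level counts do not separate them.

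Of the IL-18 receptor chains, Il18rap was lower in KO de novo Tregs and Il18r1 was not. Il18rap had 2.48 and 3.41 CPM in KO de novo Tregs and 9.2 and 7.03 CPM in WT, a log2 fold change of −1.46 (SE 0.26). Splenic libraries also did not overlap, with 6.69 and 6.29 CPM in KO and 9.66 and 9.27 CPM in WT, but the log2 fold change of −0.54 (SE 0.18) did not pass the test (adjusted p = 0.229). Pre-Tregs had 4.73, 6.9 and 9.57 CPM in KO and 7.47 and 4.89 CPM in WT.

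Il18r1 had 17 and 21.8 CPM in KO de novo Tregs and 14.4 and 15.7 CPM in WT, a log2 fold change of 0.36 (SE 0.16). In splenic Tregs it had 23 and 24.2 CPM in KO and 14 and 15.1 CPM in WT. The log2 fold change of 0.70 (SE 0.14) just missed the threshold (adjusted p = 0.0598). Il18r1 was called with DESeq2 (adjusted p = 0.0127), with no count filter (edgeR adjusted p = 0.022) and with a replicate term (edgeR adjusted p = 0.0393). Crossed replicate pairs, an alternative chosen after seeing the data, also gave a call (edgeR adjusted p = 0.00272). RLE size factors, limma-voom and the shared spread gave none. With 1 library left out Il18r1 had log2 fold changes between 0.64 and 0.76. In pre-Tregs it had 5.3, 5.79 and 7.73 CPM in KO and 7.03 and 8.36 CPM in WT (log2 fold change −0.28, SE 0.31, adjusted p = 0.787).

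Il1rl2, the IL-36 receptor, was highest in pre-Tregs. It had 17.5, 11.4 and 18.2 CPM in KO pre-Tregs and 21.8 and 12 CPM in WT pre-Tregs. De novo Tregs had 3.19 and 3.02 CPM in KO and 2.34 and 2.94 CPM in WT, and splenic Tregs 0.646 and 2.05 CPM in KO and 3.22 and 3.03 CPM in WT. The splenic groups do not overlap, but the KO libraries differ from each other, and the log2 fold change of −1.22 (SE 0.53) did not pass the test (adjusted p = 0.357). It was −0.60 without KO replicate 1 (adjusted p = 0.342) and −2.27 without KO replicate 2 (adjusted p = 0.00903), and the adjusted p was up to 0.741 over all 11 alternatives.

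Sigirr, the inhibitory member, had 378 and 323 CPM in KO and 322 and 328 CPM in WT de novo Tregs, and 295 and 350 CPM in KO and 317 and 288 CPM in WT splenic Tregs. The log2 fold changes were 0.11 (SE 0.09) and 0.09 (SE 0.11, adjusted p = 0.779). Without KO replicate 1 the splenic value was 0.22 (adjusted p = 0.0416). In pre-Tregs the KO libraries had 96.7, 207 and 132 CPM, on both sides of the 126 and 126 CPM in WT (log2 fold change 0.23, SE 0.31, adjusted p = 0.825).

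Counted over the family, 0 of 8 members were called in pre-Tregs, where 0% of 14746 genes were called by edgeR, 969 genes had an unadjusted p under 0.05 and DESeq2 called 88. In splenic Tregs 2 of 7 tested members were called, Il1rl1 higher and Il1r2 lower, against 1.37% of 12264 genes (0.612% higher and 0.758% lower). Of 7 members tested in de novo Tregs, 3 passed, all lower (Il1r2, Il1rl1 and Il18rap), beside 6.46% of 11855 genes (2.92% higher and 3.54% lower). The family was proposed with results of these libraries known, and nothing is read from the counts of members called at any stage. KO and WT libraries did not overlap for 1 of 8 members in pre-Tregs, 5 in de novo and 5 in splenic Tregs, while 27.8%, 47.7% and 46.4% of the tested genes had no overlap. The median log2 fold change of the tested members was −0.19 in pre-Tregs, −0.13 in de novo and 0.09 in splenic Tregs, against 0.03, −0.00 and 0.00 over all genes tested.

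Between splenic Tregs and pre-Tregs most members differed in both genotypes, as did many genes. Stage coincides here with count table and tissue, which cannot be told apart. In KO cells 6 of 8 members changed, against 40.9% of 13058 genes (20.2% higher and 20.7% lower). Il1rl1, Il18r1, Il1r2 and Sigirr rose and Il1rl2 and Il1r1 fell. In WT cells 7 of 8 changed, against 40.8% of genes (20.6% higher and 20.2% lower), the same 4 upward and Il1rl2, Il1r1 and Il1rap downward. The median over the members was 0.73 in KO and 0.77 in WT, against −0.02 and 0.00 over all genes.

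Il1rl1, the IL-33 receptor gene, rose by 4.43 (SE 0.24, adjusted p = 9.57e-08) in KO and by 3.89 (SE 0.30, adjusted p = 2.96e-06) in WT cells on the log2 scale. For Il18r1 the values were 1.92 (SE 0.20, adjusted p = 9.71e-06) in KO and 0.92 (SE 0.22, adjusted p = 0.00664) in WT. Il1r2 rose by 1.82 (SE 0.44, adjusted p = 0.0055) in KO and by 2.64 (SE 0.51, adjusted p = 0.00178) in WT. The WT value of Il1r2 was 1.92 without WT pre-Treg replicate 1 and 4.16 without WT pre-Treg replicate 2. Sigirr rose by 1.15 (SE 0.23, adjusted p = 0.00165) and 1.27 (SE 0.26, adjusted p = 0.00265) in KO and WT. Il1rl2 had log2 fold changes of −3.54 (SE 0.45, adjusted p = 5.19e-05) in KO and −2.43 (SE 0.44, adjusted p = 0.00121) in WT. Il1r1 passed at adjusted p = 0.00618 in KO and 0.00995 in WT, but 3 of its 4 splenic libraries were at or under 3 counts, so no fold is given.

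For Il1rap the value in KO was 0.31 (SE 0.20, adjusted p = 0.222), and in WT it fell by 0.74 (SE 0.22, adjusted p = 0.0165). The KO call of Il1r1 was lost without KO splenic replicate 1 (0.0589). The WT calls of Il1r1, Il1rap and Il18r1 were lost without WT pre-Treg replicate 1 (adjusted p = 0.053, 0.166 and 0.0631; Il1rap at −0.49), and those of Il1r1 and Il1rap without WT splenic replicate 1 (0.0796 and 0.125).

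The genotype effect itself was tested for a difference between splenic Tregs and pre-Tregs, and 0 of 8 members passed by edgeR, against 0.214% of 13058 genes. At an unadjusted p under 0.05 there were 2 members, Il1rap with a difference of 1.05 (SE 0.29, adjusted p = 0.133) and Il18r1 with 1.00 (SE 0.30, adjusted p = 0.172). DESeq2 called both, with adjusted p = 0.0305 for Il1rap and 0.0464 for Il18r1. The splenic and pre-Treg effects of Il1r2 differed by −0.82 (SE 0.66, adjusted p = 0.631), so a difference was not shown.

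The genes on either side of the chromosome 1 cluster were also looked up. Within 0.5 Mb outside the cluster the tables list 9 protein-coding genes, of which 5, 3 and 3 were tested in pre-Tregs, de novo and splenic Tregs and 0 were called. Map4k4, a kinase gene next to Il1r2, had log2 fold changes of −0.02 (SE 0.09) in de novo and 0.07 (SE 0.12) in splenic Tregs. The members were chosen by their values and these neighbours were not, so the counts of the members and the neighbours are not compared. Neighbours within the cluster could differ in the sign of their estimates. Il1rl1 ends at 40465415 and Il18r1 starts at 40465552. In de novo Tregs their log2 fold changes were −1.51 (SE 0.27) and 0.36 (SE 0.16), and Il18r1 was not called.

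**Figure D3:**
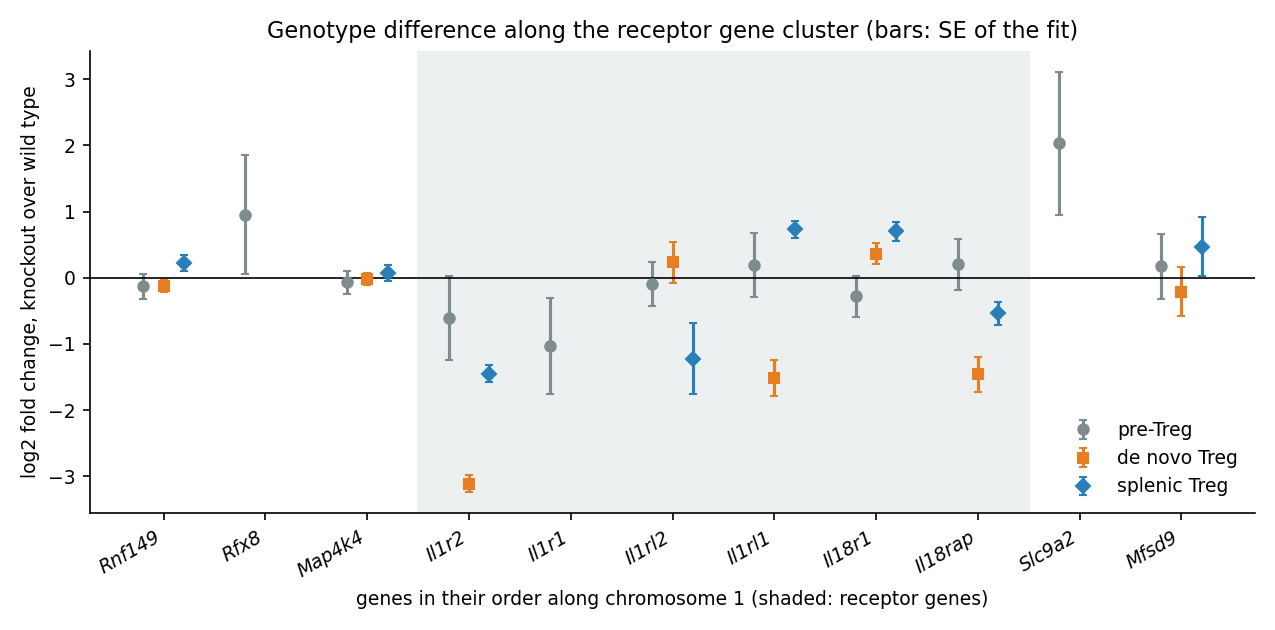
Log2 fold change of KO over WT (y axis, with the SE of the fit) for the genes of the chromosome 1 cluster and the tested protein-coding genes around it, in chromosomal order (x axis), at the 3 stages. Il1r2 lies at −3.11 in de novo and −1.45 in splenic Tregs, while Map4k4 beside it lies at −0.02 and 0.07.

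Genes with the most similar pattern were found for each member by the root-mean-square difference (RMSD) of centred log2(CPM + 0.5) over the 6 group means, among 11825 expressed genes. Nearest to Il1r2 were Cd80 (RMSD 0.355), Rhod (0.456) and Sdc4 (0.562), all more distant than the nearest genes of the other members. For Il1rl1 they were Sh3tc1 (0.136), Fam160a1 (0.231) and Src (0.233), and for Il18rap Plcb4 (0.083), Pecr (0.186) and Plxna3 (0.196). Il18r1 lay closest to Gbp7 (0.106), Il1r1 to Gpr171 (0.128), Il1rap to Stxbp3 (0.059) and Sigirr to Acbd4 (0.0486). No member had another member among its 3 nearest genes.

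The ligands and the signalling chain below the receptors were read from the same fits. Of 10 IL-1 family ligands and antagonists found in the tables, 2, 2 and 3 were tested in pre-Tregs, de novo and splenic Tregs and 0 were called. Il33, Il36a, Il36b and Il1f10 had 0 counts in all 13 libraries. Il18bp, the soluble IL-18 antagonist, averaged 6.49 CPM (SD 0.432) in KO and 4.81 CPM (SD 0.622) in WT de novo Tregs, and 6.67 CPM (SD 0.723) and 4.96 CPM (SD 0.736) in KO and WT splenic Tregs. Of 16 receptor signalling genes, all tested at each stage, 0 were called in pre-Tregs, 1 in de novo and 1 in splenic Tregs, in both cases Peli2, lower in KO, where 0%, 6.46% and 1.37% of all genes were called. Their median log2 fold changes were −0.13, 0.01 and −0.03, against 0.03, −0.00 and 0.00 over all genes.

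Peli2 encodes a Pellino ubiquitin ligase that acts on IRAK proteins. It averaged 0.941 CPM (SD 0.288) in KO and 4.56 CPM (SD 0.512) in WT splenic Tregs (n = 2 each), and fell by 2.27 on the log2 scale (SE 0.37, adjusted p = 0.0358). De novo Tregs had 2.14 CPM (SD 0.0566) of Peli2 in KO and 12.8 CPM (SD 1.42) in WT (log2 fold change −2.58, SE 0.22). Myd88, the adaptor shared by the signalling receptors, averaged 114 CPM (SD 1.53) in KO and 130 CPM (SD 1.35) in WT splenic Tregs and was not called. Of 5 tested genes that process or activate the ligands, 0 were called at each stage. Among Toll-like receptors, which use the same TIR-domain signalling, 0 of 5, 1 of 6 and 0 of 7 tested were called, the 1 being Tlr1, with 90.9 CPM (SD 3.12) in KO and 52 CPM (SD 4.85) in WT de novo Tregs.

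A list of 10 genes known from IL-33-responsive tissue Tregs, compiled with earlier results of these data known, had 0 of 8 tested members called in pre-Tregs and 0 of 10 in splenic Tregs. In de novo Tregs 5 of 8 were called lower in KO, namely Rora, Klrg1, Irf4, Batf and Ccr8, with a median log2 fold change of −0.87 over the 8. Over all genes at that stage 3.54% were called lower and the median was −0.00, and nothing is read from the difference. Klrg1, an inhibitory lectin-like receptor gene, averaged 0.63 CPM (SD 0.119) in KO and 7.67 CPM (SD 3.1) in WT, and Rora, a nuclear receptor gene, 38.4 CPM (SD 0.43) and 72 CPM (SD 1.54) in KO and WT. Of 7 genes of IL-18- and IL-12-responsive T cells, 0 were called in pre-Tregs and 0 in splenic Tregs. In de novo Tregs Il12rb2 was called higher (log2 fold change 1.10, SE 0.28) and Il12rb1 (−1.09, SE 0.18), Cxcr3 (−0.90, SE 0.19) and Eomes (−1.25, SE 0.29) lower. Over all genes there, 2.92% were called higher and 3.54% lower. This list too was compiled with earlier results of these data known, and nothing is read from its calls.

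Several other cell types carry these receptors, and the levels of their markers moved with genotype in part. Neutrophils express the IL-1 decoy receptor. The summed level of 11 neutrophil markers was 3.53 to 3.65 CPM in KO and 9.35 to 10.1 CPM in WT de novo Tregs, with Elane and Ly6g at 0 and 1 of 5 tested markers (Ngp) called lower. In splenic Tregs the sum was 0.513 to 14.8 CPM in KO and 3.81 to 30.6 CPM in WT, with 1 of 8 (Mpo) called lower. Mast cells and basophils express ST2. Their 9 markers summed to 26.6 to 28.7 CPM in KO and 83.9 to 98.2 CPM in WT de novo Tregs, mostly from Kit, which was called lower (24.2 CPM, SD 2.03, in KO and 87.4 CPM, SD 10.5, in WT; log2 fold change −1.85, SE 0.12), while Fcer1a, Ms4a2, Mcpt4 and Tpsb2 were at 0. In splenic Tregs they summed to 3.05 to 6.37 CPM in KO and 7.21 to 8.55 CPM in WT, with Mcpt4 and Tpsb2 at 0.

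Group 2 innate lymphoid cells also carry ST2, and their 6 markers summed to 5.44 to 9.4 CPM in KO and 10.1 to 10.3 CPM in WT de novo Tregs, with Il5 and Rxrg at 0. In splenic Tregs, where Il1rl1 was higher in KO, they summed to 9.88 to 12.3 CPM in KO and 9.29 to 9.69 CPM in WT, with Il13, Il5 and Rxrg at 0. CD8 T and NK cells carry the IL-18 receptor. Their 8 markers summed to 42.9 to 56.7 CPM in KO and 49.6 to 53.2 CPM in WT de novo Tregs, and to 31.1 to 42.8 CPM in KO and 49.2 to 51.1 CPM in WT splenic Tregs, with 0 called.

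Macrophage and dendritic cell markers, 12 genes, summed to 136 to 156 CPM in KO and 169 to 173 CPM in WT de novo Tregs (Clec9a at 0; 1 of 7 tested, Zbtb46, called lower), and to 145 to 159 CPM in KO and 189 to 220 CPM in WT splenic Tregs (0 of 11 called). B and plasma cell markers summed to 37.5 to 42.4 CPM in KO and 33.5 to 35.1 CPM in WT de novo Tregs, with Cd79b called higher and Ms4a1 lower of 5 tested. In splenic Tregs they summed to 62.5 to 96.9 CPM in KO and 42.5 to 52 CPM in WT, with 1 of 8 (Cd79b) called higher. Erythroid and platelet markers summed to 0.63 to 0.992 CPM in KO and 3.09 to 111 CPM in WT de novo Tregs, with 2 of 3 tested (Hba-a1 and Hbb-bs) called lower. Thymic stroma markers summed to 326 to 329 CPM in KO and 243 CPM in both WT de novo libraries, with Foxn1, Psmb11 and Krt5 at 0. Most of the sum was Pecam1, at 296 CPM (SD 2.83) in KO and 225 CPM (SD 1.71) in WT. Of 4 tested stroma markers, 2 (Epcam and Pecam1) were called higher. Of the 7 markers that define Tregs, Ctla4 and Il2ra were called higher in KO de novo Tregs and Ctla4 in KO splenic Tregs. The part of these markers in the receptor results was not tested.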

How the data were processed

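Expression was measured by RNA sequencing of 13 libraries. The values are the deposited raw counts per gene, 1 table per stage, not normalized by the authors. Per the submitters' processing notes the genome build was GRCm38 and the tools included STAR 2.5.2, Subread 1.5.2 with featureCounts, Picard 2.9.0, FastQC, MultiQC and limma. For the annotation release and the strandedness, nothing is given in the sources used here. The pre-Treg table holds 47729 genes, and 22048 are in all tables. All per-sample columns were used (0 left out).

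Groups follow the sample titles. Genotype was tested per stage with edgeR 4.0.16 in R 4.3.3 (TMM, filterByExpr at min.count 10, min.total.count 15, quasi-likelihood F-test). Stage contrasts and interactions came from 6 group means over 13 libraries. Adjusted p is Benjamini-Hochberg over all genes tested, and a gene is called under 0.05. SE is the log2 fold change over the root of F, and SD that of CPM. Il1r1 failed the count filter in de novo and splenic Tregs. Common biological coefficients of variation were 0.284, 0.0939 and 0.131 in pre-Tregs, de novo and splenic Tregs. CPM per kb uses the deposited exonic gene length. The fits were also run on simulated counts that used the common spread of each fit, with known changes only in genes with higher counts. That run does not cover low-count members such as Il1r1 or a spread that differs between genes.

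The members and lists were chosen with earlier results of these data known. All members are named whatever their p, and of other lists up to 6 called genes; Il18bp, Myd88 and Map4k4 were named after their values were seen. Gene neighbours, likeness (a pseudocount of 0.5 CPM, at least 1 CPM in 1 group) and RefSeq promoter matches are descriptions. The likeness result of Il1rl2 is not reported here. Alternatives were RLE size factors, no count filter, DESeq2 1.42.0, limma-voom (limma 3.58.1), a replicate block, 1 library left out, a spread shared over the groups and, in pre-Tregs, the genes of all tables.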

Additional observations from a re-analysis of the deposited data

Results flagged for a closer look

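Il1rl1 and Il1rl2 had KO libraries on opposite sides of WT at the 2 Foxp3-positive stages. Of all tested genes, 47.7% in de novo and 46.4% in splenic Tregs had KO and WT libraries without overlap, in either direction. The share of genes that changed sides between these stages was not counted. Every KO library of Il1rl1 lay below WT in de novo Tregs and above WT in splenic Tregs, and the splenic minus de novo difference of the log2 fold changes was 2.24 (SE 0.34). For Il1rl2 every KO library lay above WT in de novo and below WT in splenic Tregs, with a difference of −1.45 (SE 0.63). It was −0.84 without splenic KO replicate 1 and −2.50 without splenic KO replicate 2, and the de novo log2 fold change of Il1rl2 was 0.23 (SE 0.31). Neither difference was called. No p-value is given, because the family was proposed with results of the de novo libraries known.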

How the results depend on the processing

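Counts of called genes changed with the settings at every stage. With 168 genes called in splenic Tregs, the count was 526 with DESeq2, 475 with no count filter, 361 with a replicate block, 60 with the shared spread and 220 to 2508 with 1 library left out. The members called there were 2, against 0 with the shared spread, 3 with DESeq2, 3 with no filter, 3 with the replicate block and 1 to 4 with 1 library left out. Same-numbered splenic libraries had a correlation of −0.16 in their deviations, and crossing the pairs, an alternative chosen after seeing the data, gave 803 genes and 4 members. Same-numbered pairs correlated at −0.17 and −0.16 in pre-Tregs and −0.03 in de novo Tregs. With 2 WT libraries per stage, the 2 values of each KO library mirror each other. These correlations therefore cannot decide whether the numbers pair the samples.

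In pre-Tregs 0 genes were called, against 88 with DESeq2, 14 with no filter, 77 with the replicate block, 71 with the shared spread and 0 to 64 with 1 library left out (64 without KO replicate 2); no member was called in any of the 12 alternatives. In de novo Tregs 766 genes were called, against 100 with the shared spread, 962 with the replicate block and 527 to 761 with 1 library left out; the members were 3, and 2 with the shared spread, which lost Il18rap. For splenic against pre-Tregs the left-out fits gave 3192 to 7321 genes and 5 to 6 members in KO (5336 and 6 called), and 2888 to 6951 genes and 4 to 7 members in WT (5330 and 7 called). The genotype effect in splenic against pre-Tregs was called for 28 genes, against 416 with DESeq2, 222 with no filter, 0 with the replicate block and 0 to 334 with 1 library left out; DESeq2 called 2 members, and the others 0.

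Signs turned in values without a call in the main comparison. In pre-Tregs they were Il18rap with the replicate block (−0.05), without KO replicate 3 (−0.06) or WT replicate 2 (−0.08), Il1rl2 without KO replicate 2 (0.09) or WT replicate 1 (0.40), Sigirr without KO replicate 2 (−0.13) and Il1r2 without WT replicate 2 (0.91). With 1 library left out their ranges there were −0.08 to 0.54 for Il18rap, −0.47 to 0.40 for Il1rl2, −0.13 to 0.44 for Sigirr and −1.34 to 0.91 for Il1r2. In de novo Tregs it was Sigirr without KO replicate 1 (−0.01, range to 0.22). In splenic Tregs they were Il1rap without KO replicate 1 (−0.12) or WT replicate 1 (−0.01) and Sigirr without KO replicate 2 (−0.03), with ranges of −0.12 to 0.29 and −0.03 to 0.22. For splenic against pre-Tregs in KO it was Il18rap with the block (0.15) or without pre-Treg KO replicate 3 (0.15), range −0.34 to 0.15. For the difference of genotype effects they were Il1r1 with limma-voom (0.35), without pre-Treg KO replicate 1 (0.11) or splenic WT replicate 2 (1.57), and Sigirr without pre-Treg KO replicate 2 (0.23) or splenic KO replicate 1 (0.00), with ranges of −1.51 to 1.57 and −0.34 to 0.23. The causes were not tested. The depth limits Il1r1, with 1 to 10 counts per splenic library.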
